A study of Mus musculus with 15 samples.

Results

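IgG1 plasma cells (IgG1 PC) were compared with the day 6 culture (D6), 3 RNA-seq libraries against 3, which are 6 of the 15 libraries of the series. The libraries were chosen by their labels alone, as biological replicates 1, 2 and 3 of each group. Both groups were wild-type mouse B cells with no treatment named, which had spent 6 days on a layer of 40LB cells in medium with 100 ng/ml IL-4. 40LB is a fibroblast feeder line made to present CD40 ligand and secrete BAFF. D6 was taken at that point, in bulk and unsorted. For IgG1 PC the cells were taken off the feeder, kept for 2 further days in RPMI without stimulation and sorted at day 8. IgG1 iGC and IgE PC, 3 libraries each, went through the same days and a sort at day 8 and are used below where they show how a level in IgG1 PC compares with non-plasma IgG1 cells of that day or with plasma cells of the other isotype. Day, feeder contact, IL-4, sorting and isotype all differ between IgG1 PC and D6 and cannot be told apart. The markers of the sort gate and the source and number of the animals are not given in the sources used here, so the p-values measure the spread between these libraries, which may be partly technical. In such bulk RNA, fewer cells of a type and less RNA per cell cannot be told apart.

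Plasma cells are the antibody-secreting end stage of the B cell lineage. The transcription factors BLIMP-1 (Prdm1), IRF4 and XBP1 drive the change: BLIMP-1 represses the B cell programme that PAX5 maintains, and XBP1, activated by the ER stress sensor IRE1, enlarges the endoplasmic reticulum (ER) so that immunoglobulin chains can be imported, folded, glycosylated and secreted. Activated B cells, in contrast, present antigen on MHC class II, respond to CD40 and IL-4 and divide rapidly, and cells on the way to plasma cells usually pass through a dividing plasmablast stage.

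Deposited expected counts of a library came to 32.6 M, 54.1 M and 47.7 M in IgG1 PC replicates 1, 2 and 3 and to 39.2 M, 36.7 M and 34.7 M in D6. All values per library below follow that order, as counts-per-million values (CPM) scaled by TMM, a scaling that assumes most genes do not change. IgG1 PC replicate 1 stood apart from the other two: chi-square per degree of freedom between libraries was 105 and 75.1 for its pairs, 30.6 for replicates 2 and 3, and 9.09 to 26.1 within D6. That library had more immunoglobulin RNA and less of several B cell transcripts, with Pax5 at 202 CPM against 361 and 353. Markers of fibroblasts, which the feeder layer is made of, were present in both groups and lower in IgG1 PC: of 24 markers 20 were measured, 13 fell and none rose, and their summed level was 62.5, 35.4 and 74.9 TPM (the transcripts-per-million unit, which corrects for gene length) in IgG1 PC against 259, 378 and 373 TPM in D6. Ccn2 was at 0 in all IgG1 PC libraries, while Col1a1 was at 88.8, 31.2 and 75.2 CPM in IgG1 PC and 88.9, 138 and 147 CPM in D6. Its call as lower (-0.94) was lost without IgG1 PC replicate 2 (-0.59) or 3 (-1.06) and without D6 replicate 2 (-0.87) or 3 (-0.81). That call was also lost with no filter, with a replicate block, without immunoglobulin genes and with the 2 groups alone. Of 18 T and NK cell markers 8 were measured, with Cd3d, Cd3e, Cd3g, Cd4 and Cd8a below the filter on low counts, and they summed to 15.7 to 24.6 TPM in IgG1 PC and 17.1 to 19.7 TPM in D6. Myeloid markers (8 of 24 measured) summed to 26.9 to 39.7 TPM against 23.2 to 24.1 TPM, and erythroid and platelet markers (2 of 13 measured) to 4.51 to 8.91 TPM against 3.76 to 4.60 TPM. Feeder markers also differed from the other groups: 14 of the 20 were higher in IgG1 PC than in IgG1 iGC and none lower, and 17 were lower in IgE PC than in IgG1 PC. The part of feeder RNA in the results was not tested.

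Of 15692 genes tested, 11281 (71.9%) differed between IgG1 PC and D6 in edgeR's quasi-likelihood test at a Benjamini-Hochberg adjusted p under 0.05, a rule that "rose" and "fell" stand for throughout. IgG1 PC were higher in 5636 genes (35.9%) and lower in 5645 (36%), and the median log2 fold change was 0.01 (5th and 95th percentiles -1.92 and 2.30). Changes of 2-fold or more were called for 2518 genes upward (16%) and 2373 downward (15.1%), and changes of 8-fold or more for 499 and 224. The libraries of the groups did not overlap for 73.1% of genes tested. Scaled by total counts, of which immunoglobulin RNA took a large part in IgG1 PC, the median became -0.27 and the split became 3964 higher against 7370 lower (1863 against 3494 at 2-fold), so directions close to 0 depend on the scaling. Against IgG1 iGC, IgG1 PC were higher for 4720 genes (30.1%) and lower for 4553 (29%), with 3226 and 6840 under total counts. IgE PC were above IgG1 PC for 4303 genes (27.4%) and below for 4816 (30.7%), with 2272 and 7265 under total counts. These comparisons share the IgG1 PC libraries.

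**Figure D1:**
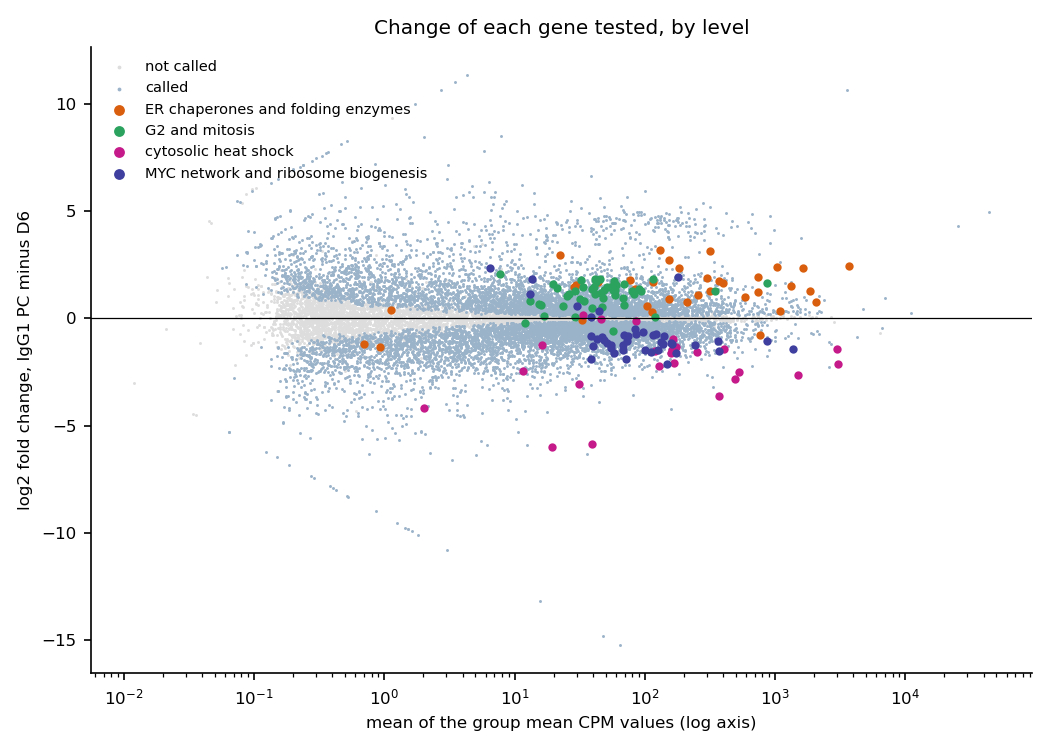
Log2 fold change (IgG1 PC minus D6, vertical axis) of each gene tested against the mean of the group mean CPM values (horizontal log axis), with called genes in blue and 4 gene lists in other colours. Heat shock genes lie below 0 and ER chaperones mostly above, and fitted values of genes at 0 in all libraries of a group, such as Ccn2, depend on the prior count.

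The IgG1 PC libraries carried the genes that define plasma cells. Of 18 plasma cell regulators 13 rose and 3 fell, with a median of 1.40 on the log2 scale against 0.01 for all genes tested, and 12 rose by at least 2-fold. Prdm1, which encodes the repressor BLIMP-1, was at 199, 212 and 183 CPM in IgG1 PC and 2.36, 3.48 and 3.86 CPM in D6, with no overlap and a log2 fold change of 5.94 ± 0.14 (edgeR adjusted p = 6.39e-14). Irf4, the factor that drives both class switching and plasma cell fate, was at 1409, 1397 and 1224 CPM in IgG1 PC and 150.3, 184 and 174 CPM in D6. Xbp1, the factor that expands the secretory apparatus, was at 2397, 1664 and 1607 CPM in IgG1 PC and 302, 297 and 305 CPM in D6. The log2 fold changes were 2.99 ± 0.08 for Irf4 and 2.65 ± 0.12 for Xbp1, and for each the IgG1 PC libraries lay far above those of D6. Bhlha15, encoding the secretory cell factor MIST1, was at 241, 168 and 166 CPM in IgG1 PC and 23, 24 and 22.4 CPM in D6, and its mean in IgG1 iGC was 0.795 CPM. Tent5c, a poly(A) polymerase that stabilises immunoglobulin mRNA, rose by 3.91 ± 0.08. Ell2, the elongation factor that favours the secreted form of heavy chain mRNA, rose by 2.08 ± 0.07. Creb3l2, a membrane-bound ER factor, rose by 3.25 ± 0.05, and Atf6, another ER stress sensor, by 1.59 ± 0.05. Pou2af1, the B cell coactivator OBF-1, rose by only 0.87 ± 0.05, and Ikzf3, encoding AIOLOS, fell by 0.61 ± 0.09 on the log2 scale.

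Surface and secreted markers of plasma cells were less uniform. Among 26, 18 rose and 5 fell, with a median of 1.14. Sdc1, encoding the plasma cell marker CD138, was at 207, 148 and 155 CPM in IgG1 PC and 9.46, 12.1 and 12.2 CPM in D6, a log2 fold change of 3.92 ± 0.15. Cd93, a receptor tied to long-lived plasma cells, was at 474, 496 and 452 CPM in IgG1 PC and 30.7, 33.2 and 27.4 CPM in D6. Tnfrsf17, which encodes BCMA, the APRIL receptor of plasma cells, was at 5.28, 3.18 and 3.54 CPM in IgG1 PC and 0.0227, 0 and 0 CPM in D6; as D6 held almost no counts, no fold is given. Mzb1, an ER chaperone of antibody assembly that B cells also use, was already at 2683, 1606 and 1626 CPM in IgG1 PC and 719, 692 and 685 CPM in D6 and rose by 1.5 ± 0.15. Slamf7, a surface receptor often used as a plasma cell marker, instead fell by 0.95 ± 0.08 on the log2 scale, and Cd44, an adhesion receptor, fell by 0.45 ± 0.06. Cxcr4, the receptor that guides plasma cells to bone marrow, was at 46.5, 39.5 and 42.7 CPM in IgG1 PC and 43.3, 46.1 and 43.7 CPM in D6; the libraries overlapped and it was not called (edgeR adjusted p = 0.702), although total-count scaling called it lower. Cd28 rose by 0.61 ± 0.15, a call lost under total counts, and stood at a mean of 61.5 CPM in IgE PC against 17.1 CPM in IgG1 PC.

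**Figure D2:**
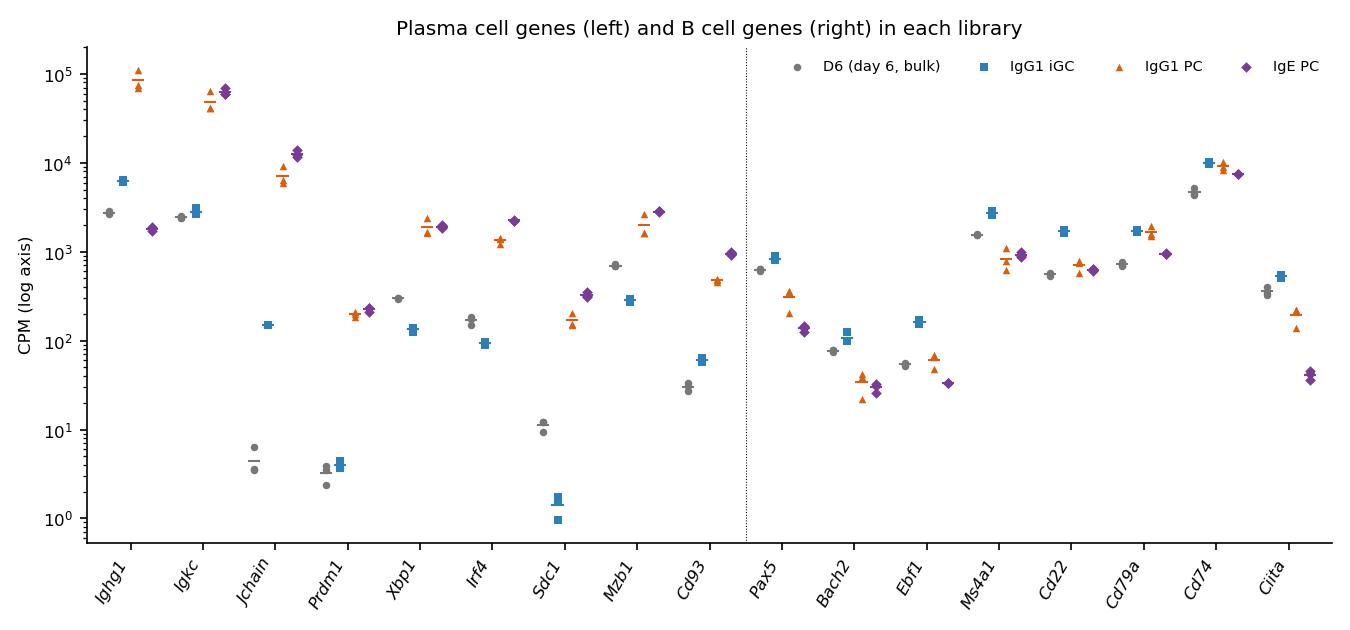
CPM per library, on a log axis, of plasma cell genes (left) and B cell genes (right) in D6, IgG1 iGC, IgG1 PC and IgE PC; each point is 1 library and horizontal bars are group means. Prdm1, Sdc1, Xbp1 and Irf4 do not overlap between IgG1 PC and D6, and Ms4a1 lies at 623 to 1092 CPM in IgG1 PC and 1532 to 1592 CPM in D6.

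Antibody transcripts took the largest share of the pool. Immunoglobulin genes with Jchain, 292 genes in all, held 41.1%, 33.4% and 34% of TPM in IgG1 PC and 3.28%, 3.17% and 3.12% in D6, or 36.2% ± 4.27 against 3.19% ± 0.0795 (SD, n = 3; 11.3-fold; exact permutation test, two-sided, p = 0.1, which is the smallest that 3 libraries against 3 allow, and 0.1125 after Benjamini-Hochberg adjustment over 9 sets). The share in IgG1 iGC was 3.01%, close to that of D6, and in IgE PC 40.9%. Ighg1, the constant gene of the IgG1 heavy chain, was at 111895, 69867 and 74899 CPM in IgG1 PC and 2857, 2647 and 2716 CPM in D6, and rose by 4.96 ± 0.15 on the log2 scale (edgeR adjusted p = 7.39e-13). Igkc, the kappa light chain constant gene, was at 63933, 41185 and 41114 CPM in IgG1 PC and 2541, 2393 and 2413 CPM in D6. Jchain, whose product joins IgM and IgA into polymers, was at 9164, 6426 and 5928 CPM in IgG1 PC and 3.52, 3.58 and 6.34 CPM in D6, and at a mean of 150.1 CPM in IgG1 iGC. Every IgG1 PC library thus held more than every D6 library of each of these genes, and Ighm and Ighd ran the other way. Ighm, the IgM heavy chain gene, was at 1014, 852 and 809 CPM in IgG1 PC and 4442, 4229.6 and 4112 CPM in D6 and fell by 2.26 ± 0.09 on the log2 scale. Ighd, the IgD heavy chain gene, was at 6.16, 5.67 and 4.08 CPM in IgG1 PC and 25.8, 19.8 and 21.3 CPM in D6. Ighe, the IgE heavy chain gene, was at 1950.3, 1348 and 2101 CPM in IgG1 PC and 587, 546 and 569.8 CPM in D6 and rose by 1.66 ± 0.13, though its mean in IgE PC was 125634 CPM. Igha was at 26.2, 23.8 and 39.6 CPM in IgG1 PC and 4.29, 4.60 and 5.07 CPM in D6 and Ighg2b at 41.2, 50.6 and 57.7 CPM in IgG1 PC and 2.90, 2.04 and 2.97 CPM in D6, both low beside Ighg1. Constant genes resemble each other in sequence and RSEM divides reads that fit several, with fractional counts for Ighg1 in 13 libraries, so the levels of the minor isotypes are uncertain.

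**Figure D3:**
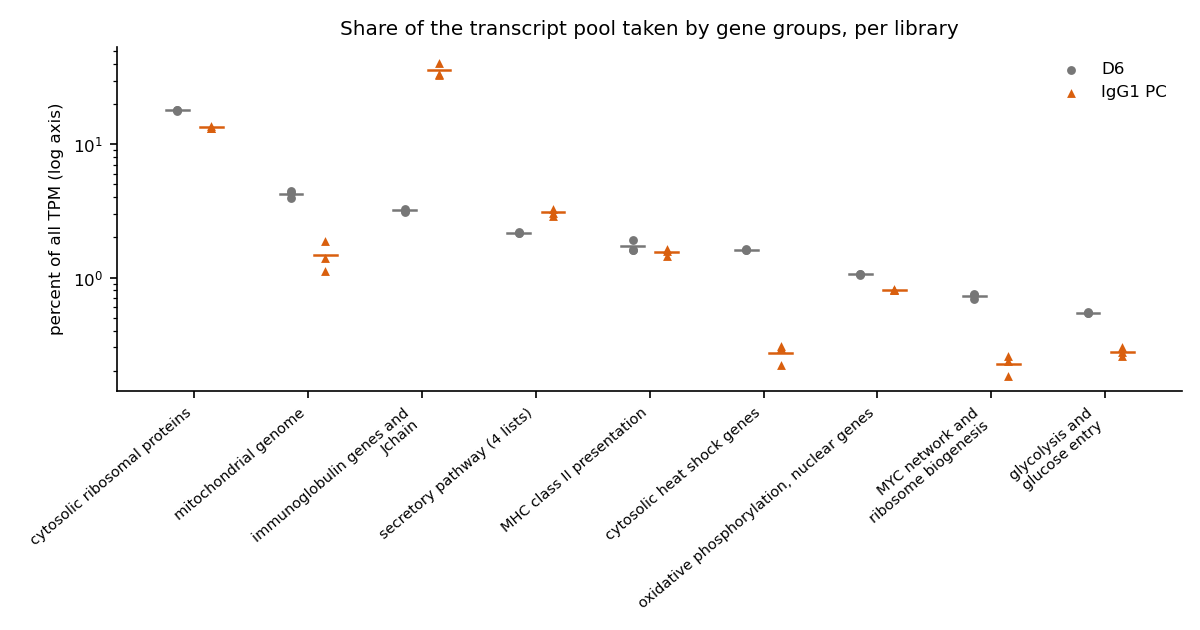
Percent of TPM taken by 9 gene sets in each of 3 D6 and 3 IgG1 PC libraries (points on a log axis; bars are means). Immunoglobulin genes with Jchain lie at 33.4% to 41.1% in IgG1 PC and 3.12% to 3.28% in D6, and heat shock genes at 0.22% to 0.304% against 1.6% to 1.63%.

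Most measured genes of each step of the secretory pathway, from import to Golgi delivery, rose. Its 145 measured genes held 3.25%, 3.08% and 2.92% of TPM in IgG1 PC against 2.16%, 2.19% and 2.15% in D6 (exact permutation p = 0.1, adjusted 0.1125), and 4.85% against 2.24% of the TPM left once immunoglobulin genes were taken out. Among 35 ER chaperones and folding enzymes 30 rose and 3 fell (median 1.46). Of 35 genes of the translocon, signal peptidase and oligosaccharyltransferase 30 rose and 3 fell (median 0.93), of 30 genes of ER-associated degradation 24 rose and 3 fell (median 1.05), and of 46 genes of ER to Golgi transport 36 rose and 3 fell (median 0.63). The summed TPM of the ER to Golgi list overlapped between the groups, at 4319, 4566 and 4394 TPM in IgG1 PC and 4537, 4578 and 4521 TPM in D6. Against IgG1 iGC of the same day, 33, 32, 27 and 42 members of these lists were higher in IgG1 PC. IgE PC in turn were above IgG1 PC for 31, 31, 30 and 42 members, against 27.4% of all genes tested.

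Sequences upstream of several of these genes hold the ER stress response element, which XBP1 and ATF6 bind. In RefSeq promoter windows of GRCm38.p6, from 250 bases before to 50 after each start, the letters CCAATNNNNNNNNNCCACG on either strand occurred in 37 of 27025 symbols (0.137%), in 7 of 28 matched ER chaperone genes (25%) and in 2 of 22 genes of ER-associated degradation (9.09%), but in 0 of 26 translocon and 0 of 40 transport genes. Of the chaperone genes that hold it 6 rose (Hspa5, Hsp90b1, Pdia6, Calr, Dnajc3 and Creld2) and Canx fell. In the whole chaperone list 30 of 35 rose and 3 fell. A different motif, the XBP1 and ATF6 core TGACGTGG, occurred on either strand in 0.714% of all symbols and in 8 of 40 transport genes (20%). It occurred in 2 of 28 chaperone genes (7.14%), 2 of 22 degradation genes (9.09%) and 0 of 26 translocon genes. Of the 8 transport genes that hold it 4 rose, beside 36 of all 46 in that list. A match describes these letters only. Stretches of 120 bases from the windows of 4 genes that rose are shown on the gene's own strand. Capitals mark the matched ER stress response element, or in Sec24d the core TGACGTGG.
Hspa5, chr2:34771970-34772089, plus strand: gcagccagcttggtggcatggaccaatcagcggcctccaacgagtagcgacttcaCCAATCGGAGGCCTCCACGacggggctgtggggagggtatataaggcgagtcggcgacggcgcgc
Derl3, chr10:75893192-75893311, plus strand: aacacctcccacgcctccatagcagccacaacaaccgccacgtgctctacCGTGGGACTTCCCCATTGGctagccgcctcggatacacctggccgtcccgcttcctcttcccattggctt
Syvn1, chr19:6046456-6046575, plus strand: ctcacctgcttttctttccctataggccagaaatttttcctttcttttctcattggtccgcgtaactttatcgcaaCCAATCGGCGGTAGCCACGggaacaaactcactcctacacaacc
Sec24d, chr3:123267376-123267495, plus strand: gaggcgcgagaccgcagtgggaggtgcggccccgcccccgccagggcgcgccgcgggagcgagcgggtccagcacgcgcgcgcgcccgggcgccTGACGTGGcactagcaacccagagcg
The elements of Hspa5 and Syvn1 begin 65 and 44 bases before the start and read in the forward direction. In Derl3 the element begins 156 bases before the start and reads on the other strand, and the core in Sec24d begins 26 bases before the start.

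Among the chaperones, Hspa5, encoding the ER HSP70 called BiP that binds unassembled heavy chains, was at 3095, 2450.3 and 2251 CPM in IgG1 PC and 1036, 1097 and 1128 CPM in D6 (log2 fold change 1.26 ± 0.09). Hsp90b1, the ER HSP90 GRP94, was at 7630.3, 6114 and 5117 CPM in IgG1 PC and 1135, 1190.1 and 1181 CPM in D6. Derl3, a channel component of ER-associated degradation, was at 229, 132 and 148 CPM in IgG1 PC and 14.1, 15.6 and 14.3 CPM in D6. In each case the lowest IgG1 PC library lay above the highest D6 library, and IgG1 PC replicate 1 was the highest. Ern1, which encodes the sensor IRE1 that splices Xbp1 mRNA, rose by 3.21 ± 0.08. Txndc11 rose by 3.15 ± 0.10, Txndc5, a disulphide isomerase abundant in plasma cells, by 2.36 ± 0.12, Pdia4 by 2.39 ± 0.10 and Fkbp11, a proline isomerase, by 2.94 ± 0.20. Creld2, an ER folding factor, rose by 2.37 ± 0.16, Hyou1, a nucleotide exchange factor for BiP, by 1.94 ± 0.09, Manf by 1.75 ± 0.11 and Dnajb9, a BiP cochaperone, by 1.77 ± 0.15. Calr and Canx, the pair of lectin chaperones that retain unfolded glycoproteins, moved apart, since calreticulin rose by 0.78 ± 0.09 while Canx was at 559.7, 625 and 511 CPM in IgG1 PC and 924, 967 and 979 CPM in D6 and fell by 0.76 ± 0.07 on the log2 scale.

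In import and glycosylation, Tram2, a translocon partner, showed the largest rise named here, 3.65 ± 0.06 on the log2 scale. Ssr4, a subunit of the translocon-associated complex, rose by 2.01 ± 0.14, Ddost of the oligosaccharyltransferase by 1.9 ± 0.12, Rpn1 of the same enzyme by 1.49 ± 0.09, Sec11c of signal peptidase by 1.78 ± 0.10, and Sec61a1, the pore itself, by 1.23 ± 0.09. Ssr1, another subunit beside Ssr4, was at 305, 311 and 254 CPM in IgG1 PC and 313, 304 and 306 CPM in D6 and was not called; total counts called it lower. In degradation, Edem1 and Edem2, which mark misfolded glycoproteins, rose by 2.5 ± 0.10 and 2.87 ± 0.11, and Herpud1, Os9, Syvn1 and Sel1l, parts of the HRD1 ligase complex, by 2.11 ± 0.09, 1.91 ± 0.10, 1.64 ± 0.09 and 1.34 ± 0.06. Vcp, the ATPase that extracts proteins from the membrane, was at 1058, 824 and 836 CPM in IgG1 PC and 998, 954 and 935 CPM in D6 and was not called; it was called lower without IgG1 PC replicate 1 (-0.21) and under total counts. In transport, Sec24d, a cargo adaptor of COPII vesicles, was at 297, 249 and 257 CPM in IgG1 PC and 56.5, 53.1 and 50.8 CPM in D6 and rose by 2.32 ± 0.08. Sec24b, a related adaptor, fell by 0.51 ± 0.07 on the log2 scale. Arfgap3, Stx5a and Lman1, the cargo receptor ERGIC-53, rose by 2.24 ± 0.09, 2.18 ± 0.10 and 1.42 ± 0.06.

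The integrated stress response, which slows translation and induces amino acid transporters under ER stress, was mixed. Of 34 members 19 rose and 6 fell (median 0.30), and 13 were higher and 12 lower under total counts (median 0.02). Atf4, its central factor, was at 517, 384 and 391 CPM in IgG1 PC and 182, 186 and 192 CPM in D6, and rose by 1.21 ± 0.09. Chac1, a glutathione-degrading target of ATF4, rose by 3.52 ± 0.18, Ppp1r15a, the phosphatase subunit that restores translation, by 2.39 ± 0.22, and Slc3a2, the heavy chain of amino acid transporters, by 1.69 ± 0.10. Asns, the asparagine synthetase gene, was at 128, 108 and 124 CPM in IgG1 PC and 123, 125 and 124 CPM in D6 and was not called, and Atf3 fell by 2.44 ± 0.24 on the log2 scale. In IgE PC 33 of the 34 were above IgG1 PC and none below: Slc7a11, the cystine transporter gene, had a mean of 29.2 CPM there, 3.45 CPM in IgG1 PC and 3.46 CPM in D6.

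**Figure D4:**
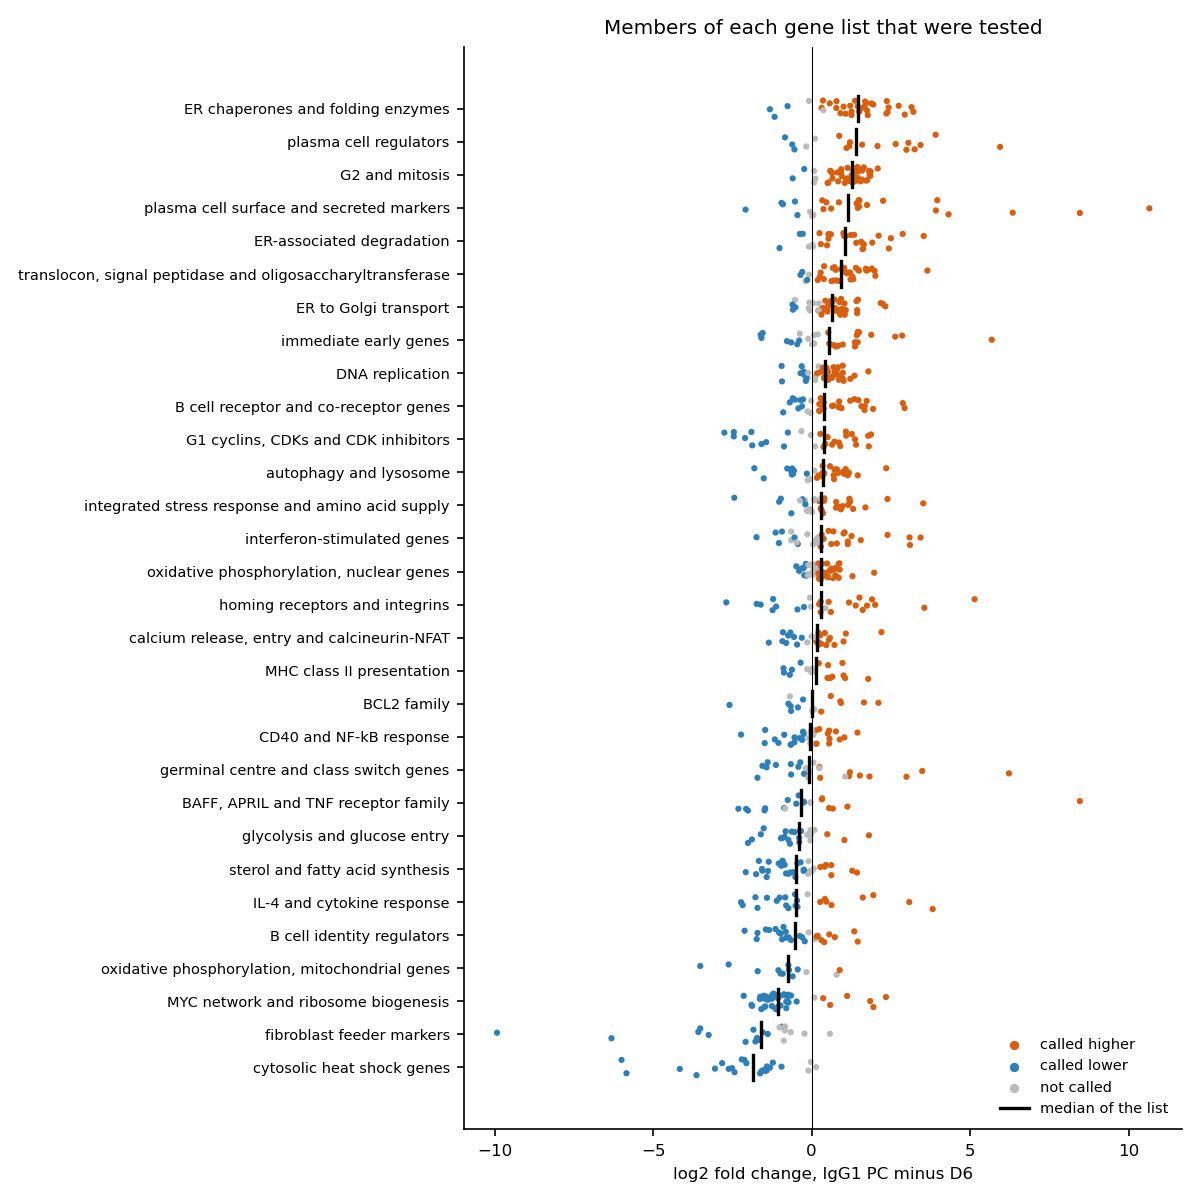
Log2 fold changes (IgG1 PC minus D6) of the members of each gene list, with each point 1 gene, the list median as a bar and colours for the call. Secretory and mitotic lists lie mostly above 0, and heat shock and ribosome biogenesis lists mostly below.

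B cell identity regulators were mostly lower but still present. Of 28, 17 fell and 8 rose, with a median of -0.51, and of -0.37 without IgG1 PC replicate 1. Pax5, the factor that maintains B cell identity, was at 202, 361 and 353 CPM in IgG1 PC and 633, 599 and 639 CPM in D6 and fell by 1.03 ± 0.15 on the log2 scale (edgeR adjusted p = 2.88e-05). Bcl6, the germinal centre repressor opposed to BLIMP-1, was at 16.7, 19.1 and 20.9 CPM in IgG1 PC and 73.6, 55.7 and 57 CPM in D6 and fell by 1.71 ± 0.11. All IgG1 PC libraries lay below all D6 libraries for both, and the Pax5 level in IgG1 PC replicate 1 was well below those in replicates 2 and 3. Bach2, a repressor of plasma cell fate, fell by 1.14 ± 0.18, Spib by 1.34 ± 0.14, Bcl11a by 1.45 ± 0.15, Klf2 by 1.73 ± 0.12 and Ciita, the master activator of MHC class II, by 0.89 ± 0.14. Ebf1, the partner of PAX5 early in the lineage, was at 48.4, 69.5 and 65.2 CPM in IgG1 PC and 56.6, 51.1 and 54.9 CPM in D6 and was not called, but rose by 0.32 without IgG1 PC replicate 1. Foxp1 rose by 1.34 ± 0.09 and Ets1, a factor that restrains plasma cell formation, by 0.56 ± 0.07, and both were lower than in IgG1 iGC, where the means were 126 and 635 CPM.

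Under TMM scaling, most genes of the B cell receptor apparatus were at or above their D6 level. Of 35 genes 24 rose and 8 fell (median 0.38, and 0.10 under total counts, with 16 higher and 11 lower). The summed TPM of the list was lower in IgG1 PC, at 5577, 6843 and 6666 TPM against 7906, 7614 and 7467 TPM in D6. Its direction thus depends on the scaling. Against IgG1 iGC only 6 genes were higher and 27 lower. Cd79a, a signalling chain of the receptor, was at 1921, 1500.2 and 1590.0 CPM in IgG1 PC and 773, 702 and 683 CPM in D6, with a mean of 1714 CPM in IgG1 iGC. Blnk, the adaptor downstream of SYK, rose by 1.48 ± 0.06, Pik3cd, the lymphocyte PI3-kinase subunit, by 1.67 ± 0.05, Syk itself by 0.87 ± 0.06, and Bank1, a B cell scaffold protein, by 2.93 ± 0.15. Cd22, an inhibitory receptor, rose by 0.34 ± 0.09, a call lost under total counts. Ms4a1, encoding CD20, was at 623, 1092 and 795 CPM in IgG1 PC and 1592, 1555 and 1532 CPM in D6 and fell by 0.90 ± 0.14 on the log2 scale.

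Calcium genes, which the study's title puts at the centre of IgE plasma cell survival, gave no common direction in IgG1 PC. Of 26 measured 14 rose and 9 fell, where 35.9% of all genes tested rose and 36% fell. Their median of 0.18 became -0.10 under total counts. Ppp3cc, a catalytic calcineurin subunit, was at 202, 181 and 168 CPM in IgG1 PC and 40.4, 40.2 and 39.4 CPM in D6 and rose by 2.20 ± 0.06. Ppp3r1, the regulatory subunit, was at 63.4, 99.7 and 69.3 CPM in IgG1 PC and 141, 133 and 132 CPM in D6 and fell by 0.80 ± 0.12. Those opposite moves of calcineurin subunits were each free of overlap. Kcnn4, a calcium-gated potassium channel, rose by 1.08 ± 0.12, Atp2a3, a pump that refills ER calcium, by 1.01 ± 0.06, and Stim1, the ER calcium sensor, by 0.46, while Orai1, the entry channel, fell by 0.46 on the log2 scale. Rcan1, a calcineurin inhibitor induced by NFAT, fell by 0.74 ± 0.11. Against IgG1 iGC 5 of the 26 were higher and 15 lower, and IgE PC were above IgG1 PC for 14 and below for 6.

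MHC class II genes were likewise divided, with 9 of 18 higher and 5 lower (median 0.14, and -0.14 under total counts). Cd74, the invariant chain, was at 10306, 8399 and 8988 CPM in IgG1 PC and 5261, 4379 and 4479.9 CPM in D6, and rose by 0.97 ± 0.08. H2-Aa, the alpha chain of I-A, was at 2145, 2092 and 2049 CPM in IgG1 PC and 2321, 1863 and 1869 CPM in D6 and was not called; it was called higher without D6 replicate 1 (0.17) and lower under total counts (-0.23). Ciita had fallen, as given above, and H2-DMa, the peptide editor, fell by 0.62 ± 0.06 on the log2 scale, whereas the lysosomal protease gene Lgmn rose by 1.78 ± 0.09. Compared with IgG1 iGC 14 of the 18 were lower in IgG1 PC, and 15 were lower in IgE PC than in IgG1 PC.

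Germinal centre and class switch genes changed in both directions. Of 26, 9 rose and 11 fell (median -0.09), where 35.9% of all genes tested rose and 36% fell. Nuggc, a nuclear GTPase of germinal centre cells, was at 26.4, 18.9 and 21.9 CPM in IgG1 PC and 0.113, 0.332 and 0.457 CPM in D6, a rise of 6.22 ± 0.24, with 18.9 CPM in IgG1 iGC. Hmces, a DNA abasic site shield, was at 22.2, 16.7 and 17.3 CPM in IgG1 PC and 1.63, 1.80 and 1.55 CPM in D6, and Neil1, a DNA glycosylase, rose by 1.82 ± 0.10. Their means in IgG1 iGC were 11.9 and 188 CPM.

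Genes driven by CD40 and IL-4, the signals present at day 6 and withdrawn afterwards, changed in both directions. Among 32 CD40 and NF-kB response genes 11 rose and 14 fell, with a median of -0.04, where 35.9% of all genes tested rose and 36% fell. Under total counts 7 were higher and 20 lower. Among 23 measured IL-4 and cytokine genes 8 rose and 14 fell, with a median of -0.51. Ccl22, a chemokine of activated B cells, was at 147, 292 and 269 CPM in IgG1 PC and 924, 1192 and 1203 CPM in D6 and fell by 2.23 ± 0.19 on the log2 scale. Fcer2a, the low affinity IgE receptor CD23 that IL-4 induces, was at 324, 424 and 421 CPM in IgG1 PC and 1358, 1339 and 1302 CPM in D6 and fell by 1.77 ± 0.10. Both groups were well separated for these genes, and IgG1 PC replicate 1 was the lowest. Cd40 itself fell by 0.86 ± 0.09, Traf1 by 1.16 ± 0.09, Tnfaip3, the NF-kB inhibitor A20, by 1.05 ± 0.11, Cd80 by 1.48 ± 0.11, Stat6, the IL-4 signal transducer, by 1.10 ± 0.06 and Il4ra, its receptor, by 0.51 ± 0.08. Cd86, a costimulator, rose by 1.03 ± 0.14 but was lower than in IgG1 iGC, where its mean was 80.6 CPM. Pim1 and Pim2, survival kinases, went up: Pim2 was at 349, 241 and 262 CPM in IgG1 PC and 19, 21.3 and 20.1 CPM in D6, a rise of 3.82 ± 0.11, and Pim1 rose by 3.08 ± 0.07. Pim2 had fractional counts in all 15 libraries.

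Immediate early genes, transcribed within minutes of a stimulus or of handling, were higher in 16 of 29 cases and lower in 7 (median 0.56), and in 14 and 11 under total counts (median 0.28). Fos was at 196, 148 and 87.7 CPM in IgG1 PC and 2.00, 2.89 and 3.55 CPM in D6, a rise of 5.68 ± 0.39, and ranged from 87.7 to 196 CPM within IgG1 PC. Zfp36, an mRNA decay factor, was at 473, 337 and 321 CPM in IgG1 PC and 53.1, 50.1 and 53.2 CPM in D6, and Dusp5, a nuclear ERK phosphatase, at 149.5, 121 and 135 CPM in IgG1 PC and 20.9, 22.5 and 21.9 CPM in D6. Egr1, Jun and Junb rose by 1.45 ± 0.27, 1.5 ± 0.20 and 1.45 ± 0.13, while Klf6 and Klf4 fell by 1.61 ± 0.09 and 1.58 ± 0.29 on the log2 scale. IgG1 PC were sorted and D6 were not, and whether sorting moved these genes was not tested; the sorted IgG1 iGC held a mean of 17 CPM of Fos.

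The list with the lowest median was that named for cytosolic heat shock genes, among them chaperones that HSF1 induces. It also holds Hsf1 itself and the mitochondrial chaperonin genes Hspd1 and Hspe1. Of 24, 21 fell and none rose (median -1.84), 20 of them by at least 2-fold, against 15.1% of all genes tested. They held 0.22%, 0.304% and 0.294% of TPM in IgG1 PC and 1.6%, 1.63% and 1.6% in D6 (exact permutation p = 0.1, adjusted 0.1125). Hsph1, the HSP110 exchange factor, was at 54.8, 57.5 and 54.1 CPM in IgG1 PC and 695, 673 and 695 CPM in D6 and fell by 3.63 ± 0.06 on the log2 scale (edgeR adjusted p = 1.22e-15). Hspa8, the constitutive HSP70, was at 1087, 1147 and 1151 CPM in IgG1 PC and 5031, 4877 and 4852 CPM in D6, and Hsp90aa1, the inducible cytosolic HSP90, at 405, 464 and 399 CPM in IgG1 PC and 2635, 2557 and 2585 CPM in D6. Hspa1b, the stress-induced HSP70, was at 1.29, 1.29 and 1.45 CPM in IgG1 PC and 73.3, 78 and 81.3 CPM in D6. All D6 libraries lay above all IgG1 PC libraries for each of these. Hspa1a and Hspa1b are near-identical copies and, like Hspa8 and Hsp90aa1, had fractional counts, so the division of reads between relatives is uncertain. Hspa4l fell by 3.05 ± 0.12 and Dnajb1 by 1.53 ± 0.08. Hsf1 was at 41.1, 30.2 and 34.3 CPM in IgG1 PC and 30.6, 32.8 and 32 CPM in D6 and was not called, but was called higher without IgG1 PC replicate 2 (0.25). In IgG1 iGC, also 2 days off the feeder, Hsph1 had a mean of 58.9 CPM, not called different from IgG1 PC, and 5 of the 24 genes were lower and 10 higher there than in IgG1 PC.

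A heat shock element was searched as TTCNNGAANNTTC on either strand of the RefSeq promoter windows. It occurred in 0.662% of all symbols and in 5 of 20 matched heat shock genes (25%). Of these 5 genes 4 fell, beside 21 of all 24 in the list. Hspd1 and Hspe1, mitochondrial chaperonin genes that face away from each other, share 1 window, printed on the strand of Hspe1 with the overlapping matches in capitals.
Hspe1, chr1:55088008-55088127, plus strand: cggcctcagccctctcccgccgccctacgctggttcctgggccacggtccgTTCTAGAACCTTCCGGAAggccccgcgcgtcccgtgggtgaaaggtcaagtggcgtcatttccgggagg
Here 2 matches overlap, the first beginning 89 bases before the Hspe1 start.

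Genes of the MYC network and of ribosome biogenesis were mostly lower. Of 43 measured, 36 fell and 6 rose (median -1.06), and 24 fell by at least 2-fold. Their share of TPM was 0.184%, 0.257% and 0.235% in IgG1 PC and 0.685%, 0.735% and 0.754% in D6 (exact permutation p = 0.1, adjusted 0.1125). Utp20, a factor of small subunit processing, was at 46.4, 57.1 and 58.7 CPM in IgG1 PC and 226, 244 and 249 CPM in D6 and fell by 2.15 ± 0.09 on the log2 scale. Ncl, the abundant nucleolar protein nucleolin, was at 658, 861 and 719 CPM in IgG1 PC and 1939, 2025 and 2104 CPM in D6. Myc, which drives this programme, was at 77.2, 75.2 and 75.5 CPM in IgG1 PC and 109, 124 and 125 CPM in D6 and fell by only 0.65 ± 0.08. Rrp9, Rrp12 and Heatr1, other processing factors, fell by 1.9 ± 0.10, 1.88 ± 0.08 and 1.62 ± 0.09. Of the 6 that rose, 5 encode partners or antagonists of MYC's dimer, namely Mxd1 (1.85 ± 0.11), Mxd3 (2.34 ± 0.12), Mxd4 (1.95 ± 0.07), Mxi1 and Mnt. The 88 cytosolic ribosomal protein genes held 13.4% of TPM in IgG1 PC and 18.1% in D6, but 21.1% and 18.7% once immunoglobulin genes were taken out, so their direction depends on the denominator.

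**Figure D5:**
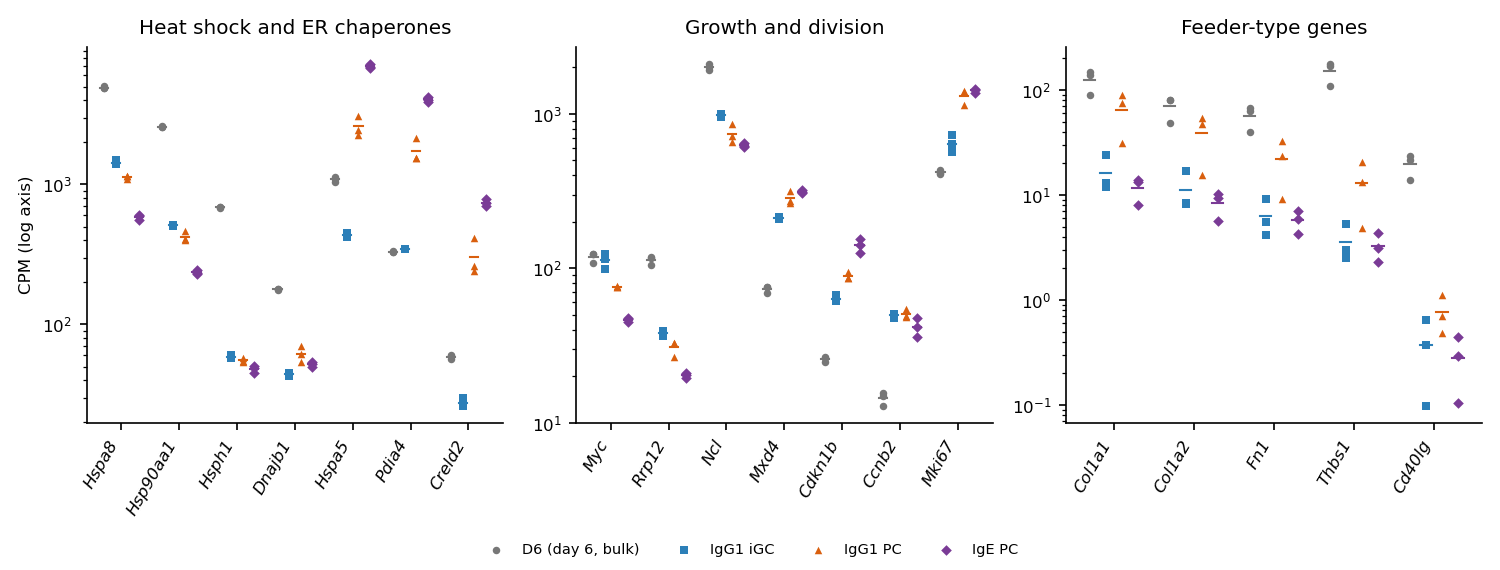
CPM (log axis) of heat shock and ER chaperone genes, growth and division genes and feeder-type genes in D6, IgG1 iGC, IgG1 PC and IgE PC, with 1 point for each library and bars for the means. Hsph1 is at 673 to 695 CPM in D6 and 54.1 to 57.5 CPM in IgG1 PC, and the feeder-type genes have their highest group means in D6.

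Genes of G2 and mitosis were mostly higher in IgG1 PC than in the growing culture, and those of DNA replication were so under TMM scaling. Of 48 genes of G2 and mitosis 43 rose and 2 fell (median 1.28), with 40 higher and 3 lower under total counts. Of 44 DNA replication genes 30 rose and 9 fell (median 0.44), with 21 higher and 11 lower under total counts (median 0.16). The summed TPM of the replication list was lower in IgG1 PC, at 1384, 1858 and 1756 TPM against 2169, 2176 and 2189 TPM in D6. Differences from IgG1 iGC were smaller. There 22 mitotic genes were higher in IgG1 PC and 3 lower (median 0.16), and 20 replication genes higher and 8 lower (median 0.15). Of all genes tested 30.1% were higher than in IgG1 iGC and 29% lower. Mki67, the proliferation antigen Ki-67, was at 1143, 1400.0 and 1379 CPM in IgG1 PC and 409.9, 412 and 433 CPM in D6 and rose by 1.64 ± 0.10 on the log2 scale. Ccnb2, a mitotic cyclin, was at 49.3, 48.3 and 54.1 CPM in IgG1 PC and 12.8, 15.5 and 14.9 CPM in D6, with 49.6 CPM in IgG1 iGC. Aurkb, the kinase of chromosome segregation, was at 69.2, 67.6 and 74.1 CPM in IgG1 PC and 20.2, 19.3 and 19.1 CPM in D6. These genes showed no overlap, and IgG1 PC and IgG1 iGC were close for Ccnb2. Foxm1, the activator of mitotic genes, rose by 1.75 ± 0.10, Cdc25b, the phosphatase that triggers mitosis, by 1.86 ± 0.06 and Top2a by 1.26 ± 0.11. Mybl2, another activator of this set, fell by 0.60 ± 0.09, and Pttg1, securin, by 0.24 ± 0.08. The call of Pttg1 was lost without IgG1 PC replicate 2 (-0.17) and without D6 replicate 3 (-0.19). It was also lost with no filter, without immunoglobulin genes and with the 2 groups alone. In replication, Tk1, thymidine kinase, rose by 1.79 ± 0.07, Cdc45, of the replicative helicase, by 1.35 ± 0.07 and Rrm2, which makes deoxynucleotides, by 1.22 ± 0.07. The helicase genes Mcm4 and Mcm6 fell by 0.22 ± 0.07 and 0.18 ± 0.06 on the log2 scale, and Orc2 and Pole2, of the origin complex and of DNA polymerase epsilon, by 0.95 ± 0.11 and 0.94 ± 0.08. The call of Mcm4 was lost without IgG1 PC replicate 1 (-0.13), and that of Mcm6 without IgG1 PC replicate 3 (-0.15) or D6 replicate 1 (-0.15). Both calls were also lost in the fit without immunoglobulin genes and in the fit of the 2 groups alone. IgE PC were below IgG1 PC for 41 of the 44 replication genes and 32 of the 48 mitotic genes, and above for none.

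The CHR element TTTGAA, bound by the complexes that switch mitotic genes, was searched on either strand of the promoter windows. It occurred in 20.2% of all symbols, in 27 of 40 matched G2 and mitosis genes (67.5%) and in 7 of 37 replication genes (18.9%). Of the 27, 26 rose, beside 43 of all 48 in the list. E2F letters, TTTCCCGC or TTTGGCGC, were found in 1.8% of all symbols, 12 of 37 replication genes (32.4%) and 1 of 40 mitotic genes (2.5%). Windows of a mitotic cyclin and of Cdc20, an activator of the anaphase-promoting complex, are printed with the element in capitals.
Ccnb2, chr9:70421659-70421778, minus strand: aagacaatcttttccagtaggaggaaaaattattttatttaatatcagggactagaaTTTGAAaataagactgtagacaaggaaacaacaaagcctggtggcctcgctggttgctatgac
Cdc20, chr4:118437344-118437463, minus strand: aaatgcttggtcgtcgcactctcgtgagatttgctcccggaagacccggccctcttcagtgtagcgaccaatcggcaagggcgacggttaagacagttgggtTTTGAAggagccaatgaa
The element begins 18 bases before the start of Cdc20 and 167 bases before that of Ccnb2.

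The genes that set entry into the cycle changed in both directions. Of 29 G1 cyclins, kinases and inhibitors 16 rose and 10 fell (median 0.37), where 35.9% of all genes tested rose and 36% fell. Under total counts 12 were higher and 13 lower (median 0.09). Cdkn1a, the p53-induced inhibitor p21, was at 34.1, 22.9 and 32.1 CPM in IgG1 PC and 182, 203 and 214 CPM in D6 and fell by 2.75 ± 0.13 on the log2 scale. Cdkn1b, the inhibitor p27, was at 86.2, 94.8 and 86.5 CPM in IgG1 PC and 26.3, 24.7 and 26.7 CPM in D6 and rose by 1.78 ± 0.07. Cdk6, a G1 kinase, was at 34.2, 47.1 and 43.1 CPM in IgG1 PC and 223, 232 and 229 CPM in D6 and fell by 2.45 ± 0.09. Every library of one group exceeded every library of the other in these. Ccnd2 and Ccnd3, its cyclin partners, fell by 1.44 ± 0.08 and 1.9 ± 0.07, and Cdkn2c, the plasma cell inhibitor p18, rose by 1.87 ± 0.08. Among other p53 targets, Ccng1 fell by 1.58 ± 0.07, Mdm2 by 0.87 ± 0.11, Pmaip1 by 2.59, Tnfrsf10b by 2.31 and Bbc3 by 0.73. Trp53inp1 rose by 1.80 ± 0.11. No list of p53 targets was drawn up, so these are single genes and give no count for p53 targets as a set.

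Sterol synthesis and glycolysis genes were mostly lower. Of 36 sterol and fatty acid synthesis genes 22 fell and 7 rose (median -0.48). Fasn, fatty acid synthase, was at 262, 281 and 297 CPM in IgG1 PC and 809.9, 837 and 843 CPM in D6 and fell by 1.57 ± 0.06 on the log2 scale. Hsd17b7, a sterol synthesis enzyme, fell by 2.08 ± 0.11, Idi1 by 1.75 ± 0.11 and Hmgcs1 by 1.55 ± 0.10, while Ebp, a sterol isomerase, and Acss2, which makes acetyl-CoA, rose by 1.28 ± 0.10 and 1.43 ± 0.23. Of 26 genes in the list of glycolysis and glucose entry 16 fell and 3 rose (median -0.39), and they held 0.277% of TPM in IgG1 PC and 0.544% in D6. The list also holds Vegfa, its largest rise, and Bnip3, its largest fall (-2.01), neither of which encodes a glycolysis enzyme. Slc16a1, a lactate transporter, was at 19.1, 22.3 and 20.4 CPM in IgG1 PC and 66.4, 81.1 and 81.5 CPM in D6, Pfkl, a phosphofructokinase, fell by 0.97 ± 0.08 and Aldoa by 0.93 ± 0.08. Gapdh was at 506, 434 and 479.5 CPM in IgG1 PC and 495, 480.4 and 483 CPM in D6 and was not called, but lower under total counts. Vegfa, a hypoxia and ATF4 target, rose by 1.81 ± 0.10.

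Nuclear and mitochondrial genes of oxidative phosphorylation differed in direction under TMM scaling, although the nuclear median lost its sign under total counts. Of 57 nuclear genes 35 rose and 7 fell, with a median of 0.29 that became -0.002 under total counts, with 19 higher and 19 lower. Their share of TPM was 0.809% against 1.06%, and 1.27% against 1.09% without immunoglobulin genes. Ndufa1, a complex I subunit, was at 116, 71.9 and 75.5 CPM in IgG1 PC and 22.8, 22.6 and 21.6 CPM in D6 and rose by 1.97 ± 0.13. Of 13 genes of the mitochondrial genome 10 fell and 1 rose (median -0.73), and the mitochondrial genome held 1.13%, 1.89% and 1.39% of TPM in IgG1 PC against 3.96%, 4.47% and 4.30% in D6. mt-Nd2 was at 598, 815 and 552 CPM in IgG1 PC and 1258, 1409.7 and 1397 CPM in D6 and fell by 1.05 ± 0.12 on the log2 scale, and mt-Nd1 fell by 0.91 ± 0.11. mt-Cytb was at 2665, 3119.7 and 2247 CPM in IgG1 PC and 2809, 3124 and 3068 CPM in D6 and was not called, but was called lower without IgG1 PC replicate 2 (-0.27) and under total counts. Nuclear copies of mitochondrial DNA share reads with these genes, so single values are uncertain.

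Survival genes gave no single direction. Of 15 measured BCL2 family members 6 rose and 6 fell (median 0.01, and -0.27 under total counts), where 35.9% of all genes tested rose and 36% fell. Mcl1, the survival factor on which plasma cells depend, was at 799.9, 778 and 678 CPM in IgG1 PC and 412, 403 and 391 CPM in D6 and rose by 0.90 ± 0.06. Bcl2l11, encoding the death activator BIM, was at 200, 214 and 206 CPM in IgG1 PC and 67.1, 62.6 and 67.8 CPM in D6 and rose by 1.65 ± 0.05. Pmaip1, encoding the MCL1 antagonist NOXA, was at 13.9, 18.1 and 15 CPM in IgG1 PC and 89, 101 and 95.2 CPM in D6 and fell by 2.59 ± 0.08 on the log2 scale. No library overlapped between groups for these genes. Bmf rose by 2.11 ± 0.09 and Bbc3, encoding PUMA, fell by 0.73 ± 0.10. Bcl2 was higher by 0.30 ± 0.08, a call lost under total counts. Bcl2l1, encoding BCL-XL, was at 57.9, 43.5 and 51.3 CPM in IgG1 PC and 49.4, 49.3 and 52.3 CPM in D6 and was not called; it was called lower under total counts (-0.27), while its mean in IgG1 iGC was 16.6 CPM and in IgE PC 21.5 CPM.

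Among 20 measured genes of the BAFF, APRIL and TNF receptor families 6 rose and 11 fell (median -0.33). The shares over all genes tested were 35.9% and 36%. Tnfrsf13c, the BAFF receptor, was at 156, 167 and 161 CPM in IgG1 PC and 202, 185 and 189 CPM in D6, and fell by 0.25 ± 0.05 on the log2 scale. Tnfrsf13b, the receptor TACI, rose by 0.33 ± 0.06, a call lost under total counts. Tnfrsf10b, a TRAIL receptor, fell by 2.31 ± 0.12. Tnfsf13b, BAFF itself, was at 12.2, 3.36 and 4.94 CPM in IgG1 PC and 19.4, 29.6 and 31.3 CPM in D6; its log2 fold change was -2.01 ± 0.37, and -2.68 without IgG1 PC replicate 1. Cd40lg was at 0.700, 0.483 and 1.1 CPM in IgG1 PC and 13.9, 23.5 and 21.5 CPM in D6. The feeder line was made to supply both ligands, and the feeder markers given above were lower in the same libraries.

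Homing receptors and integrins rose in 14 of 25 cases and fell in 8 (median 0.29), where 35.9% of all genes tested rose and 36% fell. Under total counts 11 were higher and 9 lower (median 0.0093). Against IgG1 iGC 6 were higher and 16 lower. Ccr6, a chemokine receptor, was at 31.7, 65.7 and 64.3 CPM in IgG1 PC and 5.63, 3.81 and 4.36 CPM in D6, with a mean of 173 CPM in IgG1 iGC and 7.12 CPM in IgE PC, and Ccr7, the receptor for lymphoid chemokines, rose by 1.61 ± 0.12. For Ccr6 IgG1 PC lay between D6 and IgG1 iGC, and IgG1 PC replicate 1 was the lowest of its group. Itga4 and Itgb7, which pair as a gut and marrow integrin, rose by 1.51 ± 0.15 and 1.74 ± 0.10, and Selplg, the selectin ligand, by 1.9 ± 0.11. Itga6, a laminin receptor chain, fell by 2.69 ± 0.14 on the log2 scale and S1pr3, a sphingosine phosphate receptor, by 1.61 ± 0.12.

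In the other lists, 21 of 34 autophagy and lysosome genes rose and 10 fell (median 0.34), and 17 of 33 interferon-stimulated genes rose and 6 fell (median 0.29). Under total counts the autophagy and lysosome list had 14 higher and 13 lower (median 0.06), and the interferon list 13 and 9 (median 0.00062). Isg20, an exonuclease, was at 121, 78.8 and 83.5 CPM in IgG1 PC and 11.4, 10.1 and 11.5 CPM in D6. Irf7, the interferon response factor, was at 43.3, 28 and 32.2 CPM in IgG1 PC and 3.34, 4.27 and 4.54 CPM in D6, and Zbp1, a nucleic acid sensor, at 61.5, 47.9 and 50.6 CPM in IgG1 PC and 5.20, 4.81 and 4.74 CPM in D6. These genes rose by 3.10 ± 0.13, 3.09 ± 0.15 and 3.43 ± 0.09, whereas Oas3, Oasl1 and Ifi44, antiviral effectors of the same response, fell by 0.94, 1.14 and 1.74 on the log2 scale.

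Beyond the lists, the 15 largest rises among well expressed genes were Jchain, Hepacam2, Pik3cg, Ly6c2, Nuggc, Prdm1, Crisp3, Sspn, Fos, Gpm6a, Nrgn, Cpeb3, Lrrn3, Zfyve28 and Rgcc, from 5.32 to 10.65 on the log2 scale. Pik3cg, the gamma PI3-kinase catalytic subunit, was at 81.9, 73.9 and 75.6 CPM in IgG1 PC and 0.749, 0.806 and 0.787 CPM in D6 (edgeR adjusted p = 2.5e-16). Cpeb3, a regulator of mRNA translation, was at 53.2, 52.7 and 52.3 CPM in IgG1 PC and 0.930, 1.42 and 1.24 CPM in D6. Zfyve28 was at 26, 27.2 and 29.8 CPM in IgG1 PC and 0.408, 0.640 and 1.01 CPM in D6. These genes were near 0 in D6 and even across the IgG1 PC libraries. IgG1 iGC held 0.904 CPM of Cpeb3 and 1.34 CPM of Zfyve28, but 15.5 CPM of Sspn against 27.8 CPM in IgG1 PC. Hepacam2 was at 12.6, 10.7 and 11.4 CPM in IgG1 PC and 0, 0.0948 and 0.0507 CPM in D6, and its rise of 7.82 became 7.23 without D6 replicate 1 and 8.72 without D6 replicate 2. Crisp3 was at 13.7, 11.9 and 9.07 CPM in IgG1 PC and 0.204, 0.118 and 0.254 CPM in D6, Gpm6a, a neuronal membrane glycoprotein gene, at 15, 13.2 and 12.6 CPM in IgG1 PC and 0.295, 0.213 and 0.279 CPM in D6 and Nrgn, which encodes a calmodulin-binding protein, at 13, 13.1 and 12.6 CPM in IgG1 PC and 0.182, 0.284 and 0.304 CPM in D6. Ly6c2 had fractional counts in all 15 libraries, since Ly6 genes resemble each other.

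Among the 15 largest falls were Hspa1a, Ereg, Ptgir, Hspa1b, Inhba, Ryr2, Cd40lg, Lox, Mylk, Hmox1, Cox6a2, Nebl and Errfi1, with log2 fold changes from -3.78 to -6.00. Lox, the collagen cross-linking enzyme, was at 1.78, 0.849 and 0.928 CPM in IgG1 PC and 18.1, 24.5 and 25.9 CPM in D6, and Mylk, myosin light chain kinase, at 0.525, 0.907 and 1.10 CPM in IgG1 PC and 15.6, 17 and 18.1 CPM in D6. The feeder markers were lower in the same libraries. Hmox1, haem oxygenase and a repression target of BACH factors, was at 18.9, 12.4 and 17 CPM in IgG1 PC and 330.1, 291 and 277 CPM in D6 and fell by 4.23 ± 0.13 on the log2 scale, with a mean of 5.30 CPM in IgG1 iGC and 45.1 CPM in IgE PC. Ptgir, the prostacyclin receptor, was at 0.280, 0.444 and 0.432 CPM in IgG1 PC and 30.6, 22.7 and 19.8 CPM in D6, and Cox6a2, a muscle-type subunit of complex IV, at 7.80, 4.69 and 4.77 CPM in IgG1 PC and 87.8, 82.3 and 78.2 CPM in D6. Ryr2, an ER calcium release channel, was at 0.105, 0.425 and 0.950 CPM in IgG1 PC and 24.5, 19.5 and 18.2 CPM in D6, and its log2 fold change of -5.28 ± 0.34 became -6.08 without IgG1 PC replicate 3. Ereg, an EGF family ligand, had a log2 fold change of -5.92 ± 0.37, and of -6.87 without that library.

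Some genes varied widely among the IgG1 PC libraries. The 10 with the largest spread there were mt-Co3, Rn7s2, Rn7s1, Mid1, C3, Thbs1, Pagr1a, Mir6236, S100a6 and Col1a2. mt-Co3 was at 0, 136 and 35.8 CPM in IgG1 PC and 502, 866 and 623 CPM in D6, and its log2 fold change of -3.51 ± 1.33 became -5.12 without IgG1 PC replicate 2. The mt-Co3 call was lost with no filter, without IgG1 PC replicate 3 (-3.25) and without D6 replicate 2 (-3.28) or 3 (-3.56). Rn7s1 and Rn7s2, 7SL RNA genes of identical values, were at 3.88, 2.43 and 33.1 CPM in IgG1 PC and 2.45, 3.13 and 2.46 CPM in D6, with the high value in replicate 3, and without it the fold change of 2.30 became 0.21. Mid1 was at 26.3, 7.35 and 41.1 CPM in IgG1 PC and 25.5, 29.9 and 26.8 CPM in D6. C3, complement, was at 52.2, 11.8 and 34.3 CPM in IgG1 PC and 27.1, 39.4 and 34.4 CPM in D6, and S100a6 at 44.1, 11.1 and 24.7 CPM in IgG1 PC and 28.9, 43.2 and 42 CPM in D6. For C3, S100a6, Thbs1 and Col1a2 the lowest IgG1 PC library was replicate 2, which also had the lowest sum of feeder markers. Thbs1, a feeder marker, was at 20.7, 4.83 and 13.4 CPM in IgG1 PC and 108, 168 and 176 CPM in D6. Pagr1a was at 17.8, 12.9 and 4.43 CPM in IgG1 PC and 4.83, 4.12 and 4.64 CPM in D6, and its libraries overlapped those of D6 although the gene was called (edgeR adjusted p = 0.0107), a call lost without IgG1 PC replicate 1 (0.94). S100a6 was called lower without that library (-1.08), and Mir6236 without replicate 3 (-1.25).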

How the data were processed

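Per the labels' protocols, polyA RNA was made into libraries (KAPA mRNA HyperPrep) and sequenced from 1 end with strand kept, 76 bp a read. The submitters' processing notes name cutadapt 1.9.1, STAR 2.5.2a, RSEM 1.3.0, DESeq2 1.12.3 and the build GRCm38. The authors deposited, for each library, expected counts per gene, which RSEM estimates by dividing reads that fit several genes, and TPM, which is scaled for length and total. The table holds 51912 gene identifiers, of which 51633 were given a symbol; every sample column matched a title and the number of unmapped columns was 0.

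Expected counts were rounded to whole numbers, filtered with filterByExpr (minimum count 10, minimum total 15), scaled by TMM and fitted with 1 mean per group over all 15 libraries (edgeR 4.0.16, R 4.3.3, robust quasi-likelihood). A gene was called where its p-value, adjusted by Benjamini-Hochberg over all genes tested, fell under 0.05. Log2 fold changes are given with a standard error computed from the fold change and its F statistic. Shares of TPM, as deposited by the authors, were compared by exact permutation tests. The code was tested on simulated data. Groups and replicate numbers came from the titles. Same-numbered libraries of the groups did not deviate together (correlations across genes -0.109, -0.113 and 0.0627), so no pairing was used. The members and lists were chosen with earlier results of these data known. Named beside list members and antibody genes are the 15 largest rises and falls among called genes with a mean of at least 10 CPM in a group and no overlap, leaving out immunoglobulin segments, predicted models and pseudogenes, and the 10 genes of largest spread in IgG1 PC; some genes under this rule are not reported here. Promoters came from RefSeq (GRCm38.p6). Alternatives were DESeq2 1.42.0 size factors and Wald test, total counts, no filter, a replicate block, the fit without immunoglobulin genes or with the 2 groups alone, each library left out in turn, and, for shares, TPM without immunoglobulin genes and expected counts.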

Additional observations from a re-analysis of the deposited data

How the results depend on the processing

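The number of genes called between IgG1 PC and D6 was 11281 and stayed between 10118 (only the 2 groups fitted) and 11344 over all alternatives, with 10562 to 11344 when a library was left out. DESeq2's Wald test called 11141, and the replicate block 11167, of which 11070 were also called without it; it ended the call of Col1a1 among the 248 genes recomputed and of no other. At 2-fold or more the count was 4891, with 4718 to 5081 when a library was left out and 5401 with no filter. Of those 248 genes, 224 kept the same verdict under all alternatives run.

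Scaling by total counts had the widest effect. It moved list medians to 1.11 for plasma cell regulators, 0.64 for the translocon list, 0.76 for ER-associated degradation, 0.34 for ER to Golgi transport, 0.16 for DNA replication and 1.00 for G2 and mitosis. The same scaling gave -0.79 for B cell identity, -0.32 for CD40 and NF-kB, -0.78 for IL-4 and cytokines, -1.34 for MYC and ribosome biogenesis and -2.12 for heat shock. Signs changed for calcium (-0.10), MHC class II (-0.14), nuclear oxidative phosphorylation (-0.00201) and the BCL2 family (-0.27), and for H2-Aa (-0.23) and Bcl2l1 (-0.27). This scaling counts immunoglobulin RNA in the total, and how far that accounts for these shifts was not tested. The B cell identity median lay between -0.56 and -0.37 when a library was left out, the latter without IgG1 PC replicate 1.

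Differences in share (IgG1 PC minus D6, in percentage points) depended on the denominator. By TPM without immunoglobulin genes and by expected counts they were, in that order, 2.61 and 2.38 for the secretory pathway (0.914 as TPM), 2.42 and 0.113 for ribosomal proteins (-4.64), and -0.398 and -0.602 for MYC and ribosome biogenesis (-0.500). For heat shock they were -1.24 and -1.54 (-1.34), for MHC class II 0.661 and 0.299 (-0.162), and for glycolysis -0.129 and -0.166 (-0.268). For nuclear oxidative phosphorylation they were 0.178 and -0.014 (-0.249), and for the mitochondrial genome -2.09 and -1.16 (-2.77). The immunoglobulin difference was 16.3 by expected counts against 33.0 by TPM. Depth limits genes near 0 in a group, such as Tnfrsf17 and Ccn2, for which a fitted fold change depends on the prior count.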
